A study of Mus musculus with 12 samples.

Results

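The 7 genes described here, Klrk1, Klrd1, Klrc1, Klrb1c, Klre1, Klra22 and Klrg1, encode killer cell lectin-like receptors of natural killer (NK) cells. They were chosen by name, as all non-control probes that the array files label with one of these symbols. That gave 10 probes for 7 of the 27962 gene names on the array. RNA came from peritoneal exudate cells, the mixed leukocytes washed out of the abdominal cavity, and was hybridised in a single colour to Agilent arrays. There were 4 groups of 3 arrays: Ifnar2-/- mice given interferon beta (IFN-β), Ifnar2-/- mice given phosphate-buffered saline (PBS), wild-type mice given IFN-β, and wild-type mice given PBS. All mice were female, 8 weeks old and labelled 129S2/SvPas*BALB/c, and cells were washed out 3 h after the intraperitoneal injection. The IFN-β was stated as 10000 IU/ml with no volume. Each array held RNA from different mice, and there was no uninjected group. Ifnar2 encodes one chain of the type I interferon receptor, and the deletion is not described as limited to a cell type.

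NK cells read the surface of other cells with a balance of activating and inhibitory receptors, and in mice many of these are C-type lectin-like proteins encoded together in the NK gene complex on chromosome 6. NKG2D (Klrk1) activates through the adaptors DAP10 and DAP12 when it meets stress-induced ligands. CD94 (Klrd1) pairs with NKG2A (Klrc1) into an inhibitory receptor for the class Ib molecule Qa-1, and the Ly49 receptors (the Klra genes) bind classical class I molecules. Type I interferons are known to activate NK cells and to induce interleukin 15, which NK cells need. The Ly49 cluster differs between mouse strains in gene number and in sequence, so a probe can match one strain's genes better than another's.

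The probes are 60 bases long. The sequences of the tested probes of the 5 genes that passed a test in any comparison are shown, since each printed signal is hybridisation to these bases and no part is marked.
Klrk1: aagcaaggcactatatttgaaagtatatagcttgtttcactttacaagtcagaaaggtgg
Klrd1: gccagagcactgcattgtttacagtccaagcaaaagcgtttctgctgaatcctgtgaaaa
Klrc1: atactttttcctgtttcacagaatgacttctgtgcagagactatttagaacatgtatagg
Klrb1c: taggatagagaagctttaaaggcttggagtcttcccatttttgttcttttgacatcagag
Klra22: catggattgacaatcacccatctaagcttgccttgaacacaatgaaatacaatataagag

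In the mouse build mm7 (NCBI35, per the file headers) the Klrk1 probe lies at chr6:129635158-129635217 on the minus strand and the Klrd1 probe at chr6:129621685-129621744 on the plus strand. The Klrc1 probe lies at chr6:129692885-129692944 and the Klrb1c probe at chr6:128801824-128801883, both on the minus strand. The files give the Klra22 probe no position and list 4 RefSeq accessions for it, one of which the array elsewhere names Klra18 and one of which RefSeq gives to Klra4. In the RefSeq table Klra22 is an older name of Klra1, so this signal may sum several Ly49 transcripts. Whether a probe lies in a coding exon or an untranslated region was not analysed here. In RefSeq's gene order on GRCm38.p6, Klre1, Klrd1 and Klrk1 are next to each other, and Klrg1 lies outside the cluster, between Mug2 and M6pr.

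Between 59.4% and 71.6% of the 43379 non-control spots were well above background on an array. On slide 3, which held the Ifnar2-/- arrays numbered 2 and 3 of both treatments and no others, the share was 59.4% to 62.5%, and dim probes had a higher limit of detection there. Of 2 probes for Ifnar2, one was lower in Ifnar2-/- cells after PBS, at a log2 scaled signal of 2.79 ± 0.14 against 4.64 ± 0.23 in wild type (SD, n = 3), and the other was higher, at 2.59 ± 0.10 against 1.64 ± 0.07. All 20 listed interferon-stimulated genes rose with IFN-β in wild type (median log2 fold change 7.09), and 2 of the 20 did in Ifnar2-/- cells. NK-defining genes were measured: Ncr1, an NK activating receptor, was well above background on all 12 arrays. In RNA from mixed cells, fewer cells of a type and less RNA per cell cannot be told apart.

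A probe was tested if some group had it well above background on each of its 3 arrays. Of the 10 probes, 7 passed, 1 for each gene. Second probes of Klrc1, Klrb1c and Klre1 were too dim. The Klrb1c probe left out was not well above background on any array. Signals below are the authors' processed signals, an intensity in arbitrary units, in arrays 1, 2 and 3 of a group. Tests used log2 of that signal less the 75th percentile of its array, with limma across all 27715 probes that passed the same filter, and p-values adjusted over all of them. A probe was called at an adjusted p under 0.05. A log2 fold change is given with its standard error (SE).

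With IFN-β in wild-type cells Klrk1 rose 6.57-fold, Klrb1c and Klrd1 fell, and the other 4 receptors did not pass the test. That is 1 of 7 members higher and 2 lower. Across all probes 40.0% were called, 18.5% higher and 21.5% lower, so the count of members was near the background. The members' median log2 fold change was 0.21 and that of all probes was -0.04. In Ifnar2-/- cells 0 of 7 were called by limma and 1, Klrg1, had an unadjusted p under 0.05. There 1.11% of all probes were called, 0.942% higher and 0.173% lower (309 probes, or 195 with the replicate number as a block).

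**Figure D1:**
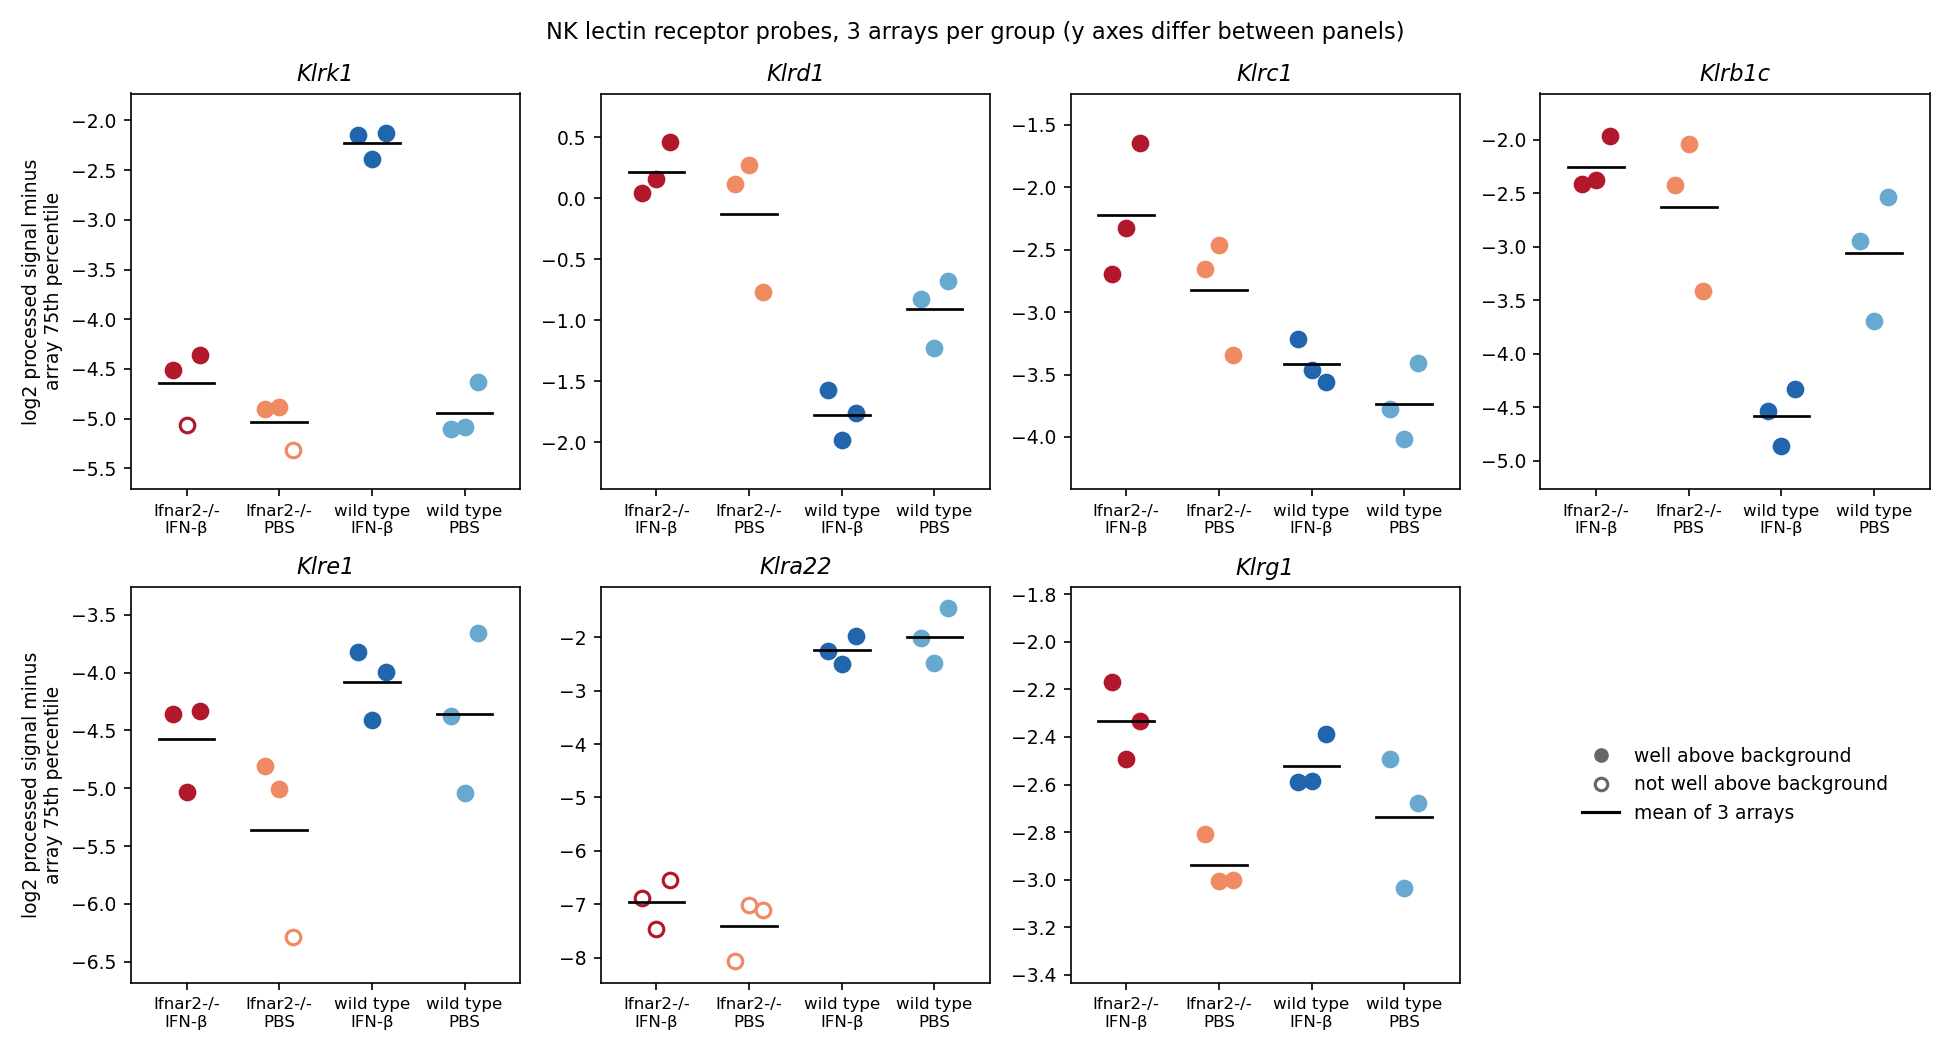
Each panel plots the tested probe of 1 receptor gene, as the log2 processed signal less the 75th percentile of its array, for the 3 arrays of each group, with the group mean as a bar. Filled points are spots well above background and open points are not; Klrk1 stands apart in wild type with IFN-β, and Klra22 is open on all 6 Ifnar2-/- arrays.

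Klrk1, the activating receptor NKG2D, had signals of 164, 142 and 151 in wild-type cells with IFN-β, against 21.7, 23.2 and 34.4 in wild-type cells with PBS. The groups did not overlap, with every IFN-β array above every PBS array. The log2 fold change was 2.72 ± 0.21 (adjusted p = 4.01e-06). In Ifnar2-/- cells the signals were 37.3, 28.5 and 47.3 with IFN-β and 25.5, 30.4 and 22.9 with PBS. These groups overlapped, and 1 array in each was not well above background. The log2 fold change there was 0.39 ± 0.21 with a 95% interval from -0.08 to 0.85 (adjusted p = 0.351). The response in Ifnar2-/- cells was smaller than that in wild type by 2.33 ± 0.30 on the log2 scale (adjusted p = 0.000388). Wild type with IFN-β thus stood above 3 groups whose means, -4.64, -5.03 and -4.94 for Ifnar2-/- with IFN-β, Ifnar2-/- with PBS and wild type with PBS, lay within the spread of the arrays. On the single slide that held both wild-type treatments the difference was 2.79, with 1 IFN-β array against 3. With normexp background correction the log2 fold change was 1.36 and still called (adjusted p = 2.05e-06).

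Klrd1, the CD94 chain, had signals of 244, 188 and 195 in wild-type cells with IFN-β, against 423, 335 and 533 in wild-type cells with PBS. The groups did not overlap, and the log2 fold change was -0.86 ± 0.26 (adjusted p = 0.0232). Ifnar2-/- cells had 873, 1062 and 1330.1 with IFN-β and 827, 1082 and 532 with PBS. These overlapped, with a log2 fold change of 0.35 ± 0.26 and an interval from -0.24 to 0.93 (adjusted p = 0.520). The Ifnar2-/- response minus the wild-type response was 1.21 ± 0.37 (adjusted p = 0.0470), and was not called with the replicate number as a block (adjusted p = 0.0788). The fall in wild type was not called without wild-type IFN-β array 2 or 3 or wild-type PBS array 1 or 3 (adjusted p from 0.0532 to 0.0815), nor when the slide was a fixed block (-0.66, adjusted p = 0.265). The difference between responses stayed called without 2 single arrays, wild-type PBS array 2 and Ifnar2-/- PBS array 2, and not without any of the other 10.

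Klrc1, the NKG2A chain that pairs with CD94, had signals of 78.0, 67.6 and 55.9 in wild-type cells with IFN-β, against 54.9, 48.6 and 80.0 with PBS. The groups overlapped, and the log2 fold change of 0.32 ± 0.29 had an interval from -0.32 to 0.97 (adjusted p = 0.423). Ifnar2-/- cells had 131, 190.3 and 309 with IFN-β and 122, 162 and 89.5 with PBS, with a log2 fold change of 0.60 ± 0.29 (adjusted p = 0.306). Both heterodimer chains therefore had their higher means in Ifnar2-/- cells, and CD94 alone was called as lower with IFN-β in wild type. A difference between the chains was not tested, and signal levels of different probes have no common scale. The second, dimmer Klrc1 probe had 16.3, 11.8 and 12.3 in wild-type cells with IFN-β, against 7.70, 10.8 and 10.8 with PBS, and was well above background on 2 arrays of each. In Ifnar2-/- cells it had 19.7, 21.0 and 40.6 with IFN-β (2 well above background) and 11.4, 14.1 and 22.4 with PBS (1). On the scaled signal its genotypes overlapped after IFN-β. After PBS every Ifnar2-/- array of this probe lay above every wild-type array. No RefSeq mRNA is listed for the tested probe, and 1, of Klrc1, is listed for the dimmer one. The signals of the tested probe thus rest on its label as Klrc1.

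Klrb1c encodes NKR-P1C, the activating receptor that carries the NK1.1 antigen in C57BL/6 mice. Its signals were 31.4, 25.5 and 32.8 in wild-type cells with IFN-β, against 97.4, 60.7 and 147 in wild-type cells with PBS. All 3 IFN-β arrays lay below all 3 PBS arrays, and the log2 fold change was -1.52 ± 0.36 (adjusted p = 0.00698). Ifnar2-/- cells had 159.7, 184 and 248 with IFN-β and 143, 217 and 85.2 with PBS. These overlapped, with a log2 fold change of 0.38 ± 0.36 and an interval from -0.43 to 1.18 (adjusted p = 0.621). The Ifnar2-/- response minus the wild-type response was 1.89 ± 0.51 (adjusted p = 0.0276). That difference lost its call without wild-type PBS array 1 or 3, wild-type IFN-β array 1 or 2, or Ifnar2-/- IFN-β array 3 (adjusted p from 0.0508 to 0.0642), and with the replicate number as a block (adjusted p = 0.0509). The fall in wild type kept its call without any single array (log2 fold changes from -1.84 to -1.26) and lost it when the slide was a fixed block (-1.48, adjusted p = 0.0925).

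Klre1, a receptor known in mice and rats to pair with other lectin-like chains, was dim and varied within groups. Its signals were 51.3, 35.0 and 41.3 in wild-type cells with IFN-β, against 36.2, 24.0 and 67.4 with PBS. Ifnar2-/- cells had 41.3, 29.2 and 48.0 with IFN-β and 27.3, 27.9 and 11.7 with PBS, the last of which was not well above background. For this probe all 4 groups overlapped their neighbours, and no comparison was called. With normexp Klre1 was called lower in Ifnar2-/- than in wild-type cells after IFN-β (-0.43, adjusted p = 0.0362); a fixed block for slide gave 0.016. The log2 fold change was 0.28 ± 0.42 in wild type (adjusted p = 0.649) and 0.79 ± 0.42 in Ifnar2-/- cells (adjusted p = 0.348). The second, dimmer Klre1 probe, not tested, had 9.64, 8.05 and 13.8 in wild-type cells with IFN-β, against 5.53, 7.98 and 5.44 with PBS. In Ifnar2-/- cells it had 13.7, 13.5 and 19.6 with IFN-β and 7.06, 9.63 and 7.70 with PBS. Its IFN-β arrays lay above its PBS arrays in both genotypes. It was well above background on 1 array of each IFN-β group and 0 of each PBS group.

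Klrg1, an inhibitory receptor for E-cadherin, is found on mature NK cells and effector T cells. Its signals were 121, 124 and 126 in wild-type cells with IFN-β, against 133, 96.1 and 133 with PBS, a log2 fold change of 0.21 ± 0.15 (adjusted p = 0.30). Ifnar2-/- cells had 189, 169 and 192 with IFN-β, all above the 109, 111 and 113 with PBS. The log2 fold change of 0.61 ± 0.15 was not called (adjusted p = 0.0913). It was called with no scaling between arrays (0.72, adjusted p = 0.0446). The difference between the responses was 0.39 ± 0.22 (adjusted p = 0.259), and 0.67 and called with no scaling (adjusted p = 0.0383). Ifnar2-/- over wild type after IFN-β was 0.19 ± 0.15 (adjusted p = 0.354), and 0.57 and called with no scaling (adjusted p = 0.00756).

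**Figure D2:**
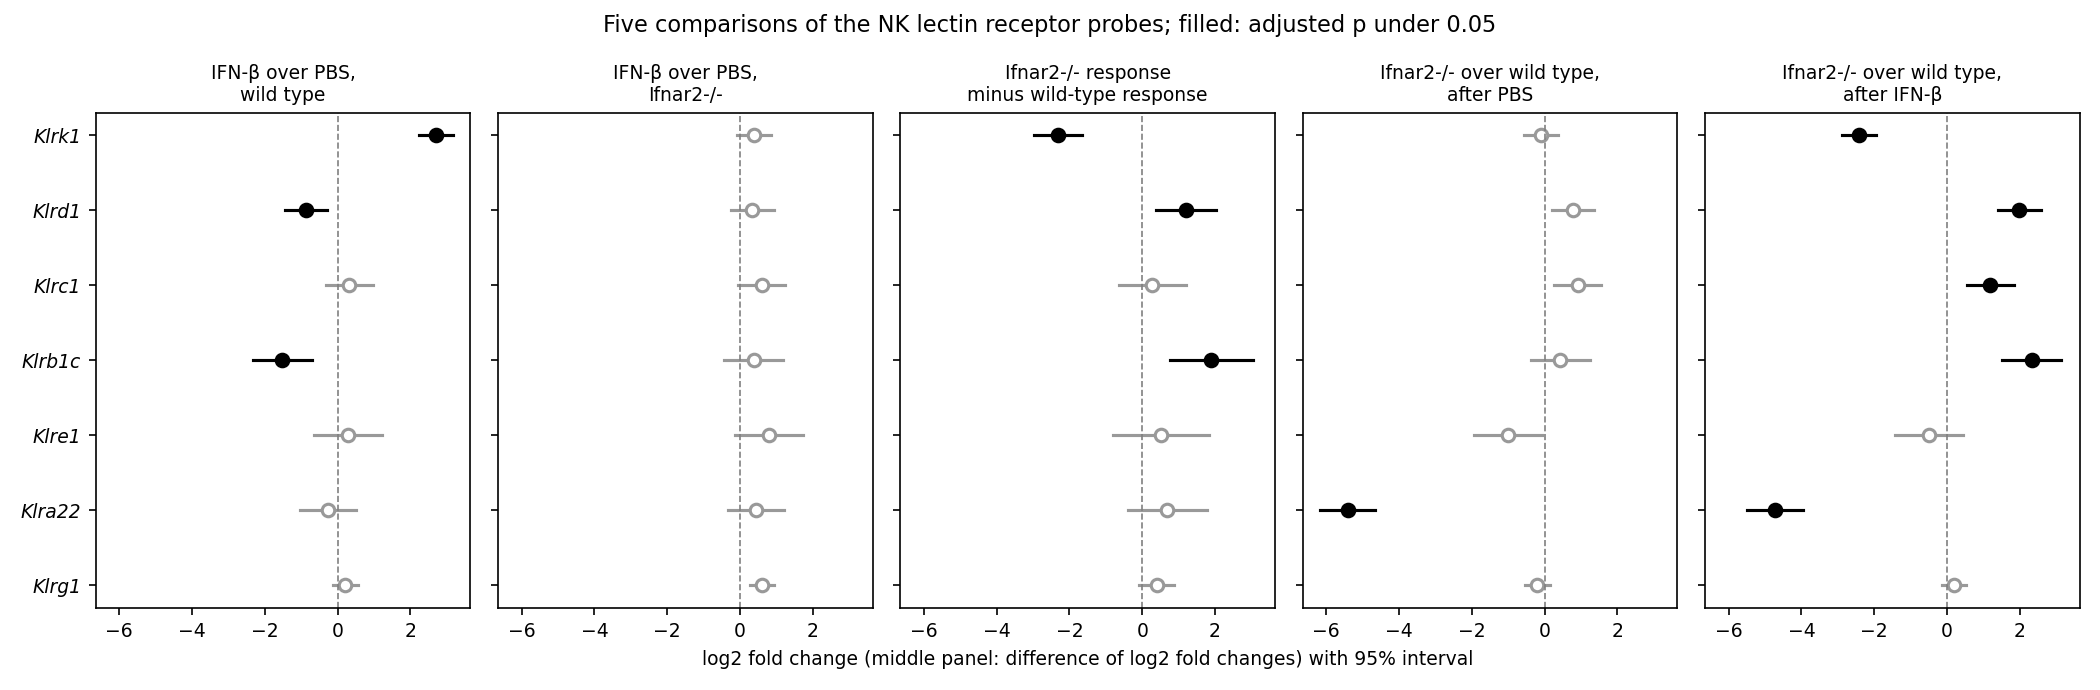
Points are log2 fold changes with 95% intervals for the 7 tested probes in each comparison; the middle panel shows the Ifnar2-/- response minus the wild-type response. Filled points passed an adjusted p under 0.05: 3 of 7 in wild type, 0 of 7 in Ifnar2-/- cells, 3 of 7 for the difference, and 1 and 5 of 7 between genotypes after PBS and IFN-β; the Klra22 values are measured differences, not bounds.

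The test of the difference between responses called 2 members higher in Ifnar2-/- (Klrd1 and Klrb1c) and 1 lower (Klrk1). Of all probes it called 17.7%, 8.46% higher and 9.27% lower. With only the slide 1 and 2 arrays Klrk1 alone was called, but each Ifnar2-/- group then held 1 array, assumed to vary like the wild-type arrays, so this says little about stability.

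Ifnar2-/- and wild-type cells after PBS differed for 1 of 7 members, Klra22, which was lower. Of all probes 4.53% were called, 2.51% higher and 2.02% lower. No slide held both genotypes after PBS, so slide and genotype cannot be told apart in that comparison except through arrays given IFN-β. After IFN-β, 3 members were higher in Ifnar2-/- cells (Klrd1, Klrc1 and Klrb1c) and 2 lower (Klrk1 and Klra22). Of all probes 38.9% were called, 20.6% higher and 18.2% lower. These comparisons use the same arrays as those of treatment above. Markers of other cells differed in the same comparison after IFN-β: 12 of 15 T cell markers and 7 of 10 mast cell markers were higher in Ifnar2-/- cells, and 5 of 7 monocyte markers were lower. With slide as a fixed block 7 T cell and 5 mast cell markers were higher, and 5 monocyte markers lower. NK and cytotoxic markers were mixed, with 3 higher and 4 lower of 18. Cma1, which is also on the mast cell list, was among those higher (log2 fold change 0.54, adjusted p = 0.0191). B cell markers were 5 higher and 1 lower of 11, and macrophage markers 4 higher and 2 lower of 11. Neutrophil markers were 1 higher and 0 lower of 7, and mesothelial and stromal markers 1 higher and 3 lower of 9. The summed scaled signal of the T cell markers was 9.67 to 11.8 in Ifnar2-/- and 3.57 to 4.98 in wild type, and that of the monocyte markers 101 to 128 in Ifnar2-/- and 247 to 288 in wild type. The part of these cells in the receptor differences was not tested.

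The Klra22 probe had signals of 7.20, 5.39 and 10.3 in Ifnar2-/- cells with IFN-β, against 152, 131 and 169 in wild-type cells with IFN-β. After PBS it had 2.84, 6.90 and 6.56 in Ifnar2-/- cells, against 185, 141 and 309.9 in wild type. It was not well above background on any Ifnar2-/- array and was so on every wild-type array. It therefore passed the filter only through the wild-type groups. The limma log2 fold change of Ifnar2-/- over wild type was -5.41 after PBS and -4.72 after IFN-β (adjusted p = 1.44e-05 and 2.48e-06). These tests used Ifnar2-/- signals near background, and they do not test a bound. A bound took the lowest signal well above background on each Ifnar2-/- array in place of the measured one. It gave 13.2-fold lower after PBS and 10.5-fold lower after IFN-β. Some probes brighter than that lowest signal were still not well above background, so neither value is a strict minimum. The gap was of similar size on slide 2 alone, at a log2 difference of -4.64 after IFN-β for 1 Ifnar2-/- array against 2 wild-type arrays, beside -4.72 over all arrays. The size depended on the background correction. With normexp the log2 fold change was -2.08 after PBS and -1.94 after IFN-β, both still called (adjusted p = 1.18e-05 and 1.6e-06). IFN-β did not pass the test for the Klra22 probe in wild type, with a log2 fold change of -0.26 ± 0.35 (adjusted p = 0.604). The labels give both genotypes the same strain, and whether the mice share a Ly49 haplotype was not tested.

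After IFN-β, Klrd1 was higher in Ifnar2-/- than in wild-type cells by a log2 fold change of 1.99 ± 0.26 (adjusted p = 0.000175) and Klrb1c by 2.33 ± 0.36 (adjusted p = 0.000550). Neither was called after PBS, where the values were 0.78 ± 0.26 (adjusted p = 0.136) and 0.43 ± 0.36 (adjusted p = 0.543). Without Ifnar2-/- PBS array 3, the lowest of its group for both, Klrd1 was called after PBS as well (1.11, adjusted p = 0.0207). Klrc1 was higher by 1.19 ± 0.29 after IFN-β (adjusted p = 0.00837) and not called after PBS at 0.91 ± 0.29 (adjusted p = 0.119), although its PBS groups did not overlap. Its call after IFN-β was lost without the slide 3 arrays (0.72, adjusted p = 0.0917) and when the slide was a fixed block (adjusted p = 0.0767). Klrk1 was lower in Ifnar2-/- cells after IFN-β by 2.42 on the log2 scale (SE 0.21, adjusted p = 8.83e-06).

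Other genes of the same families were measured too, and whether their differences share a cause with the Klra22 gap was not tested. There were 33 further probes for 24 Klra, Klrb1, Klrc and related Klr genes, of which 24 probes for 20 genes were tested. After PBS, 3 of these probes were higher in Ifnar2-/- cells and 6 lower, against a background of 2.51% and 2.02%. Klra20, like the Klra22 probe, was not well above background on any Ifnar2-/- array and was so on all wild-type arrays. After PBS its measured log2 fold change was -3.52 (adjusted p = 0.00086), and the same kind of bound gave 5.85-fold lower in Ifnar2-/- cells. One of 3 Klra3 (Ly49C) probes showed the opposite pattern, being well above background on all 6 Ifnar2-/- arrays and on no wild-type array. After PBS its measured log2 fold change was 4.40 (adjusted p = 2.2e-06), and the bound was 4.32-fold higher in Ifnar2-/- cells. The Klra20 probe and this Klra3 probe each passed the filter only through the genotype where they were bright. Their bounds are not strict minima either. The other Klra3 probes had log2 fold changes of 1.93 (adjusted p = 0.0111) and 0.94 (adjusted p = 0.189), so probes of this gene disagreed in size. Klra15 was lower in Ifnar2-/- cells by a log2 fold change of -2.96 (adjusted p = 0.00168) and Klra17 by -2.79 (adjusted p = 0.0102). Genotype differences after PBS thus ran in both directions among Ly49 probes, with Klra3 the only Ly49 gene called higher in that comparison. The remaining probe called higher was for Klrb1f, not a Ly49 gene (log2 fold change 1.54, adjusted p = 0.0441). With slide as a fixed block 0 of the 22 tested genes of the NK complex list (1 probe each) were called in this comparison, in place of 2 higher and 5 lower. Without the slide 3 arrays 2 were, both lower, and with the replicate block 1 was higher and 5 lower. After IFN-β, 10 of the 24 probes were higher in Ifnar2-/- cells and 5 lower, against 20.6% and 18.2% of all probes. Klra3 was not the only Ly49 gene called higher there. Many of these genes are close copies of each other, so a probe may also report its neighbours.

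**Figure D3:**
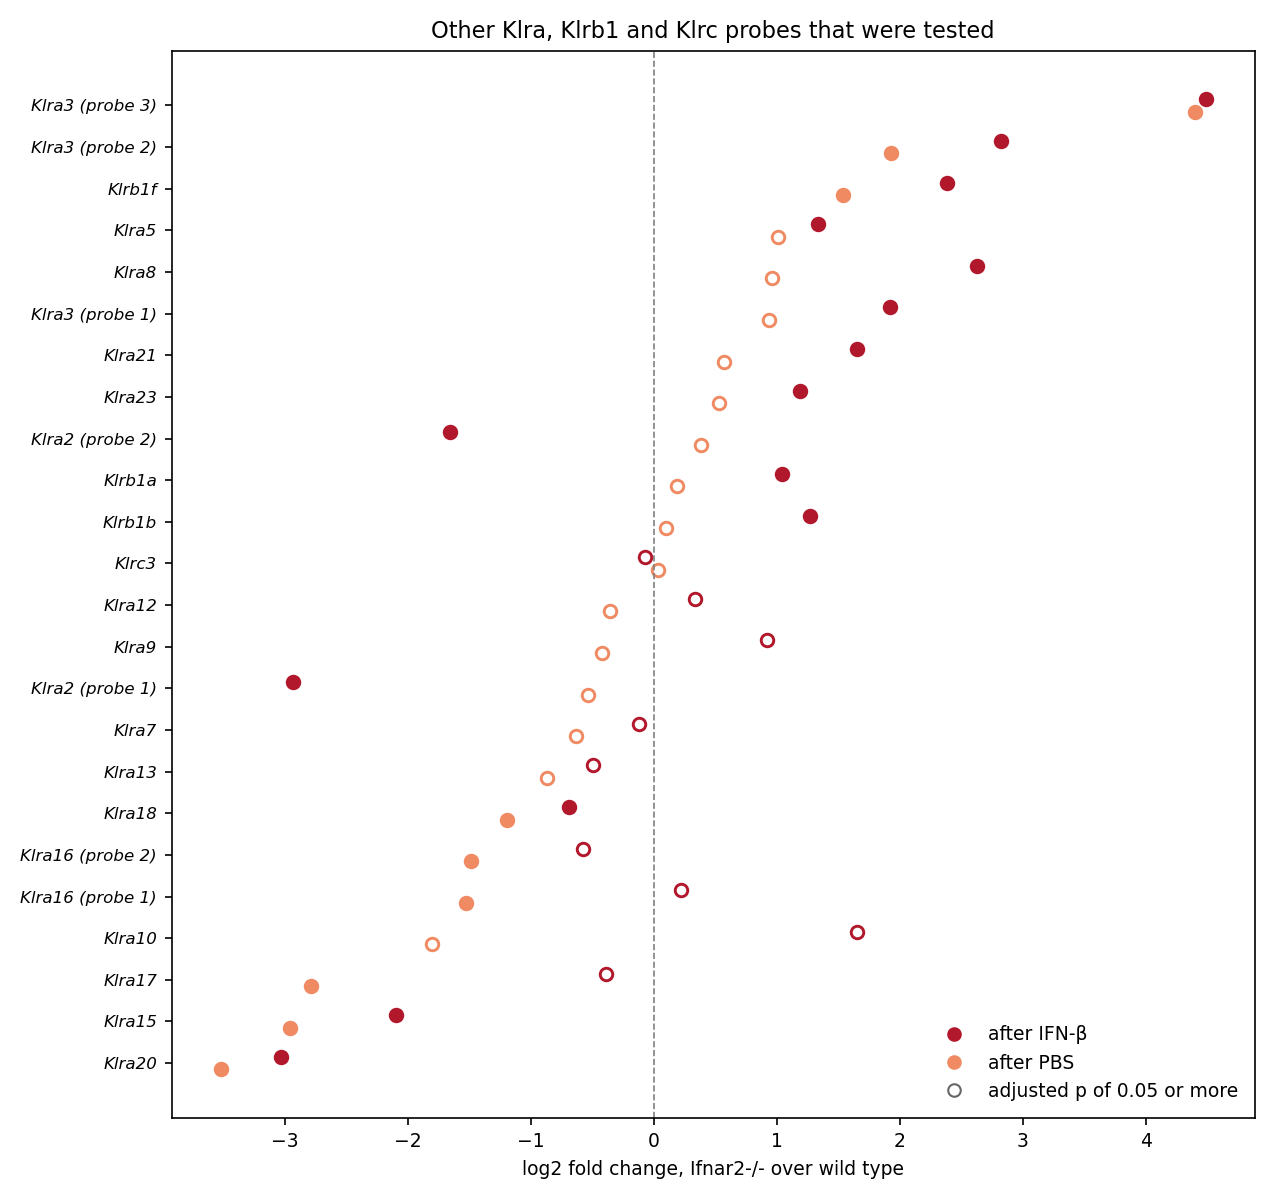
Points are log2 fold changes of Ifnar2-/- over wild type after IFN-β and after PBS for the 24 other tested Klr probes, ordered by the value after PBS, and open points had an adjusted p of 0.05 or more. Klra20 lies lowest and a Klra3 probe highest; their fold changes include groups not well above background and are not bounds.

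With IFN-β in wild type, the receptor genes of the NK complex beside the 7 members were called about as often as all probes. Of 22 tested, 3 rose and 5 fell, near the 18.5% higher and 21.5% lower over all probes, with a median log2 fold change of -0.29. Klra2 (Ly49B), a Ly49 receptor known from myeloid cells, rose by 2.04 ± 0.22 (adjusted p = 4.06e-05), and Cd69, an early activation antigen of leukocytes, rose by 2.43 ± 0.36 (adjusted p = 0.000367). Klrb1a (NKR-P1A) fell by 1.64 and Klrb1b (NKR-P1B) fell by 1.13 (adjusted p = 0.00132 and 0.000964), the same direction as Klrb1c. Klrb1f, of the same family, was not called at -0.04 (adjusted p = 0.949). Klra10 fell by 1.87 (adjusted p = 0.0308), with a call that was lost under 8 of 22 other settings. With IFN-β in Ifnar2-/- cells 0 of the 22 were called by limma and 4 had an unadjusted p under 0.05. Slide as a fixed block left 3 higher and 2 lower in wild type, and the replicate block 3 higher and 4 lower.

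Among markers of NK and cytotoxic lymphocytes more rose than fell in wild type, while most of those of T cells fell. Of 18 tested NK and cytotoxic markers, 8 rose and 1 fell, against 18.5% higher and 21.5% lower over all probes, with a median log2 fold change of 0.79. With slide as a fixed block 5 rose and 1 fell, and Eomes, Tbx21 and Ccl5 were no longer called. The effector genes led, with log2 fold changes of 4.71 ± 0.36 for Xcl1 (lymphotactin, adjusted p = 3.83e-06), 4.20 ± 0.38 for Ifng (interferon gamma, adjusted p = 1.35e-05) and 4.06 ± 0.38 for Gzmb (granzyme B, adjusted p = 1.75e-05). Cd7, a surface protein of NK and T cells, fell by 1.5 (adjusted p = 0.000185). Ncr1, which marks NK cells most specifically of these, had a log2 fold change of 0.99 ± 0.37 and was not called (adjusted p = 0.0537). Of 15 T cell markers, 12 fell and 0 rose, with a median of -1.25, and their summed scaled signal was 3.57 to 4.98 in wild type with IFN-β, against 10.0 to 10.5 with PBS. The summed NK marker signal was 104 to 115 with IFN-β and 85.2 to 122 with PBS in wild type, mostly from Cma1. Since Cma1 is also on the mast cell list, the NK sums cannot be read as a measure of NK cells. Among Ifnar2-/- arrays the T cell sum was 9.67 to 11.8 with IFN-β and 11.4 to 18.6 with PBS, and the NK sum 127 to 139 with IFN-β and 120 to 155 with PBS. None of these lists had a called gene there, with 4 NK and 2 T cell markers at an unadjusted p under 0.05. Among the other cell types in wild type, 5 of 7 monocyte markers rose and 0 fell (median 1.77), 5 of 11 B cell markers fell, and macrophage markers split 2 higher and 3 lower of 11. Neutrophil markers were 0 higher and 1 lower of 7, mast cell markers 1 higher and 3 lower of 10, and mesothelial and stromal markers 0 higher and 4 lower of 9. The part of these cell types in the receptor changes was not tested.

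**Figure D4:**
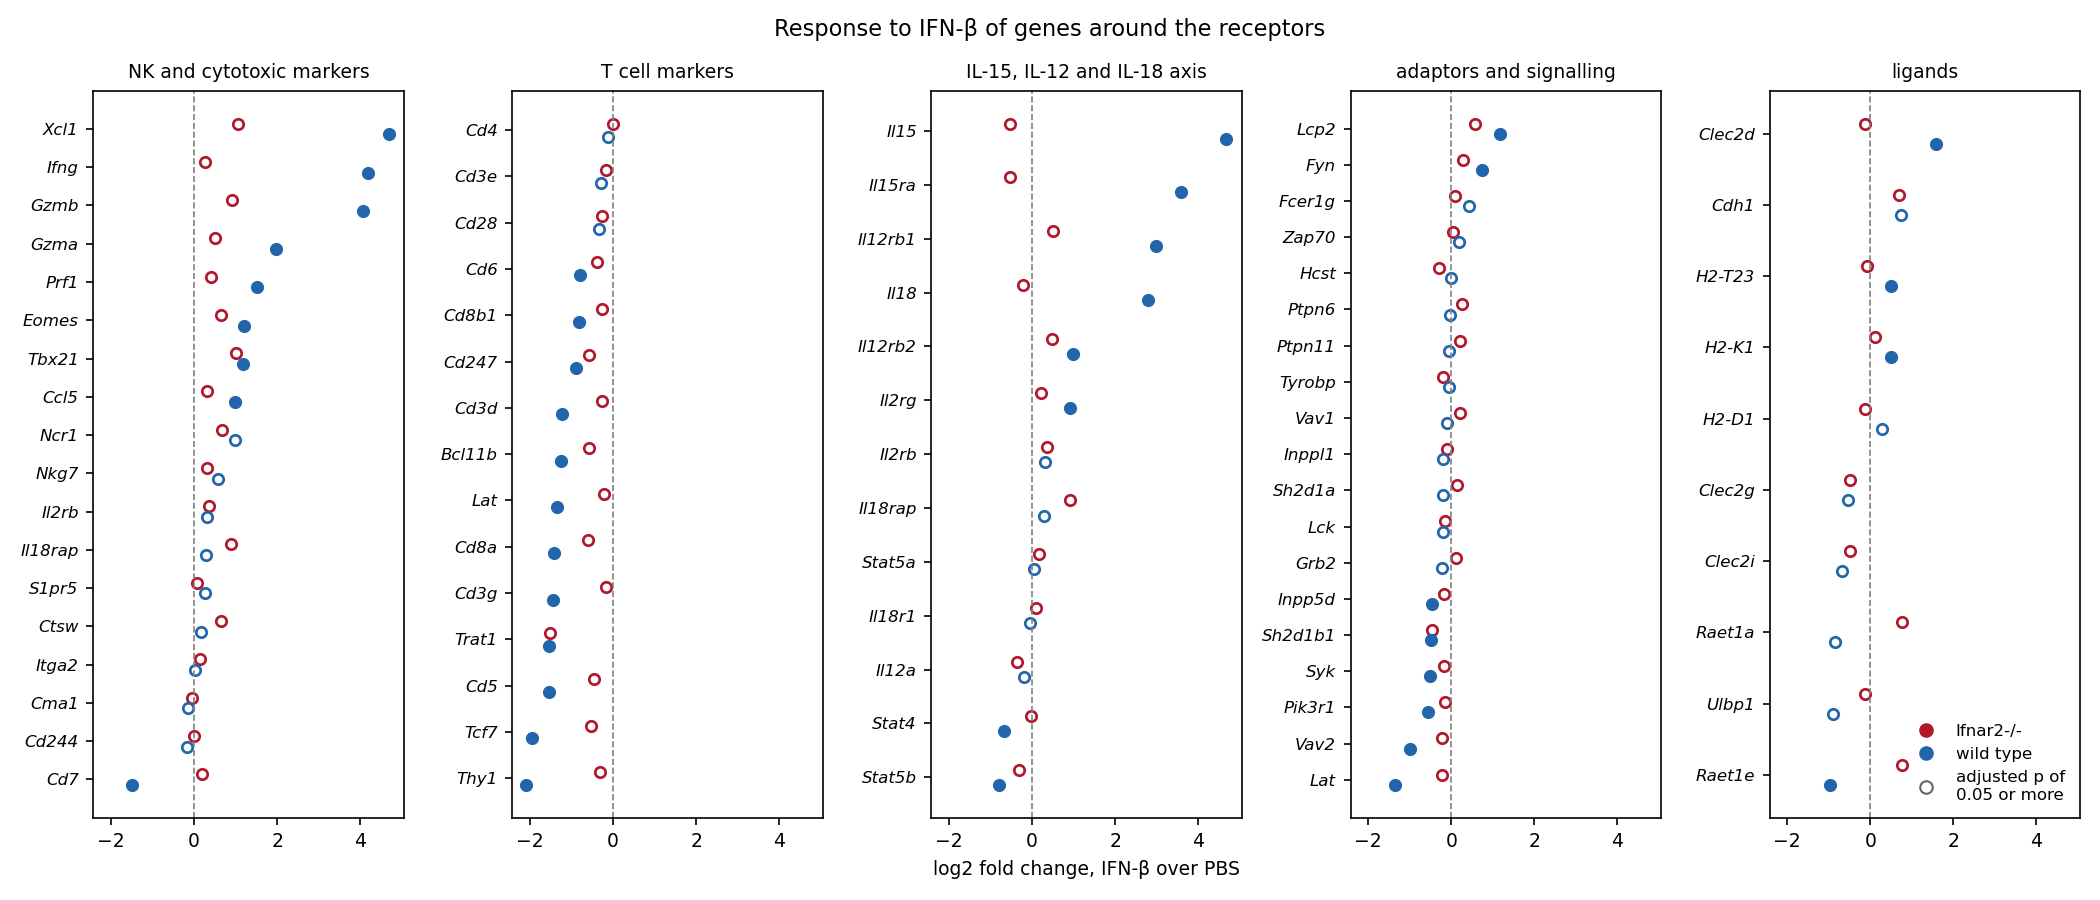
Log2 fold changes of IFN-β over PBS are drawn for each tested gene of 5 lists, in Ifnar2-/- cells and wild-type cells, with open points for an adjusted p of 0.05 or more. In wild type Xcl1, Ifng, Gzmb and Il15 lie far to the right and 12 of 15 T cell markers to the left with filled points; all Ifnar2-/- points are open.

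The receptors' partners were called about as often as all probes. The adaptors of NKG2D were not called, Hcst (DAP10) at a log2 fold change of 0.00 ± 0.23 and Tyrobp (DAP12) at -0.06 ± 0.15 in wild type (adjusted p = 0.997 and 0.790). Other cells in this mixture, such as macrophages, also express both adaptors. Of 19 adaptors and signalling genes, 2 rose and 6 fell in wild type, a share near the 40.0% over all probes, and with slide as a fixed block 1 rose and 2 fell. Lcp2 (SLP-76) rose by 1.18 ± 0.14 (adjusted p = 0.000105), and Lat, which T cells also use, fell by 1.35 (adjusted p = 0.000456). Of 10 tested ligands, 3 rose and 1 fell, also near that 40.0%. The balance was not stable, with 1 higher and 3 lower without the slide 3 arrays and 1 higher and 0 lower with slide as a fixed block. Clec2d, the ligand of Klrb1b and itself in the NK complex, rose by 1.58 ± 0.15 (adjusted p = 1.77e-05). H2-T23, which encodes the Qa-1 heavy chain seen by CD94 and NKG2A, rose by 0.49 ± 0.17 (adjusted p = 0.0421), a call lost under 13 of 23 other settings. The NKG2D ligand Raet1e fell by 0.96 (adjusted p = 0.0261), a call lost under 7 of 22 other settings, over which the value ran from -1.17 to -0.03. Cdh1, the E-cadherin that KLRG1 binds, had 0.75 ± 0.31 (adjusted p = 0.0777). Across Ifnar2-/- arrays 0 of 19 adaptors and 0 of 10 ligands were called by limma, with 2 and 3 at an unadjusted p under 0.05.

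Several cytokine and cytokine receptor genes that act on NK cells rose in wild type. Of 13 tested genes of the interleukin 15, 12 and 18 axis, 6 rose and 2 fell, against 18.5% higher and 21.5% lower over all probes. Il15 rose by 4.66 ± 0.17 (adjusted p = 1.99e-08), its presenting receptor Il15ra by 3.58 ± 0.30 (adjusted p = 6.97e-06), Il12rb1 by 2.99 ± 0.22 and Il18 by 2.80 ± 0.16. The difference between genotypes was called for each of these 4, at -5.19 for Il15 and -4.11 for Il15ra (adjusted p = 4.64e-07 and 8.7e-05). Il2rb, the signalling chain shared by interleukins 2 and 15, was not called at 0.32 ± 0.23 (adjusted p = 0.307). Of these 13 genes 0 were called by limma in Ifnar2-/- cells, with 3 at an unadjusted p under 0.05.

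Across the 12 arrays, which share groups, slides and treatment, the members fell into unlike patterns. As a description, Klrd1 and Klrb1c correlated at r = 0.96, Klrd1 and Klrc1 at 0.81, and Klrk1 and Klrb1c at -0.76. Among about 15200 probes of other genes detected on all arrays, those most like Klrk1 were Tapbpl (r = 0.994), Scfd1 (0.993) and Ugcg (0.991). Those most like Klrb1c were Cxcr3 (0.970), Kcnj8 and Plekhg2 (both 0.967), and those most like Klrd1 were Ppm1j (0.978), Pxdc1 and the Klrb1c probe (both 0.964). Ctsw, a cathepsin of cytotoxic cells, was most like Klrc1 (0.963), followed by Dusp2 (0.948) and Lta (0.930). Klra22 was most like Golga5 (0.984), Klre1 most like Zbed4 (0.935) and Klrg1 most like Mmp14 (0.889). The Klra22 value rests in part on Ifnar2-/- signals that were not well above background on any array.

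RefSeq promoter windows on GRCm38.p6, from 250 bases before to 50 after a gene's start, were at hand for 5 members: Klrk1, Klrc1, Klrb1c, Klre1 (with 2 starts) and Klra22 under the name Klra1. They were searched on both strands for the interferon-stimulated response element core, GAAA followed by any 2 bases and GAAA again, and the interferon gamma-activated site TTCNNNGAA. None of the 6 windows held either. Over all 32851 windows 3.44% held the first and 8.30% the second. This says only that these letters are not in these windows.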

How the data were processed

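The 7 genes, the gene lists and the tests were chosen with earlier results of these data known. Cy3-labelled RNA of 12 samples was scanned; per the submitters' processing notes and the file headers, Agilent Feature Extraction 9.5.3.1 made the deposited processed signals, an intensity on a linear scale after background subtraction and detrending within the array, with no normalization between arrays. The deposited mean and background signals are intensities before that step. The deposited table of the whole series held the same values (0 of 45018 rows differed). Outlier spots were left out, spots of a probe were averaged (41174 probes), and log2 of the signal minus each array's 75th percentile was taken. Probes well above background on all arrays of 1 group and with values on 6 arrays were kept (27715). One limma 3.58.1 fit in R 4.3.3 (with the data.table package, version 1.17.8) with 4 group means gave moderated two-sided tests, Benjamini-Hochberg adjusted over all kept probes within a comparison; it was tested on simulated data. Intervals are 95%, and n is 3 arrays per group, which limits precision. Every member was described; from each of 13 lists, a gene stood as its brightest kept probe, and up to 4 called genes of largest change per comparison, and ligands or adaptors of members, could be named. Ncr1, Il2rb, Cma1, Cd7, Klrb1b, Klrb1f and the further Klra3 probes fall outside that rule and were named after their values were seen. Same-numbered Ifnar2-/- arrays deviated together (r = 0.58, 0.21 and 0.11), partly sharing a slide, and other pairs did not all (r = 0.05, -0.13 and -0.14 in wild type), so the replicate block is given where it changes a receptor gene's call or an NK complex count. Probe names were updated by RefSeq accession for 17327 kept probes, and figures were drawn with matplotlib. Alternatives were normexp (offset 50), quantile or no scaling, other filters, slide or replicate blocks, 1 probe per gene, only the arrays compared, each array left out, and, chosen after seeing the data, no slide 3 arrays.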

Additional observations from a re-analysis of the deposited data

Results flagged for a closer look

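For 3 receptor genes the response to IFN-β differed between genotypes by the interaction term of the limma fit. The Ifnar2-/- response minus the wild-type response was -2.33 on the log2 scale for Klrk1 (adjusted p = 0.000388), 1.21 for Klrd1 (adjusted p = 0.0470) and 1.89 for Klrb1c (adjusted p = 0.0276). The Klrk1 value stayed called under all 21 other settings that gave one, the Klrb1c value under 12 of 22 and the Klrd1 value under 6 of 22. Within slide 2 the Ifnar2-/- minus wild-type difference after IFN-β was -2.25 for Klrk1, 1.91 for Klrd1 and 2.19 for Klrb1c, from 1 Ifnar2-/- array and 2 wild-type arrays.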

How the results depend on the processing

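Of 783 alternatives to the 35 member results, 729 kept direction and side of the threshold, 34 lost a call, 5 gained one and 15 changed sign, with no call on either side. For calls of 7 members in the difference between responses, 1 was left with normexp, with no filter on dim probes, with slide as a fixed block, with the replicate block and without the slide 3 arrays (1 to 3 with single arrays left out). In wild type 1 was left with slide as a fixed block. In Ifnar2-/- cells 1 was called with no scaling. With the filter requiring all 12 arrays above background, 0 were called between genotypes after PBS (1 to 2 with arrays left out) and 3 after IFN-β; fewer member probes were tested there.

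Across all probes, slide as a fixed block gave 6866 calls in wild type, 176 in Ifnar2-/- cells, 2973 for the difference, 58 between genotypes after PBS and 6588 after IFN-β. Without the slide 3 arrays there were 15 in Ifnar2-/- cells, 2176 for the difference, 394 after PBS and 6863 after IFN-β, from fewer samples. In Ifnar2-/- cells there were 95 with no filter, 195 with the replicate block and 19 with only the arrays compared. Leaving out single arrays gave 44 to 406 calls in Ifnar2-/- cells and 626 to 1810 between genotypes after PBS.

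Signs changed for Klra22 in Ifnar2-/- with normexp (-0.040) and in wild type without PBS array 3 (-0.50 to 0.0089 over arrays left out). They changed for Klrb1c in Ifnar2-/- without Ifnar2-/- PBS array 3 (-0.018 to 0.67), and for Klrc1 (-0.040) and Klrd1 (-0.071) in Ifnar2-/- without slide 3. The Klrc1 difference was -0.010 without Ifnar2-/- IFN-β array 3 (range to 0.51) and -0.36 without slide 3. Klre1 was -0.062 in wild type without wild-type PBS array 2 (range to 0.63), 0.016 between genotypes after IFN-β with the slide block, and -0.030 for the difference with normexp. Klrk1 between genotypes after PBS was 0.0090 unscaled, 0.15 with the slide block, 0.035 without slide 3, and -0.18 to 0.064 over arrays left out, above 0 without Ifnar2-/- or wild-type PBS array 3. The cause was not tested. Probes near background, as on slide 3, limit the dim receptors most.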
